A study of Homo sapiens with 16 samples.

Results

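The readers and erasers of N6-methyladenosine (m6A) are themselves made from mRNAs that can carry this mark, and their own transcripts are described here in the prostate cancer line C4-2B and in MDV-R, its enzalutamide-resistant derivative. The set held 10 genes fixed by name, 8 readers (YTHDF1, YTHDF2, YTHDF3, YTHDC1, YTHDC2, IGF2BP1, IGF2BP2 and IGF2BP3) and 2 erasers (FTO and ALKBH5). A region of the study's merged m6A list was taken as a member when its strongest peak summit lay between the start and the end of 1 of these genes in GENCODE, and 28 of 36970 regions did. They fell in 9 of the 10 genes, 9 regions in YTHDF genes, 6 in YTHDC genes, 6 in IGF2BP genes and 7 in the erasers.

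The data came from MeRIP-seq, in which fragmented RNA is pulled down with an antibody against m6A (the IP) and compared with RNA that was not pulled down (the input). The 16 libraries formed 4 groups of 4, an IP and an input group for each line, all wild type by their labels and taken on day 3, with an anti-m6A antibody from NEB for the IP and no antibody for the input. C4-2B is a human prostate cancer cell line that enzalutamide, an androgen receptor inhibitor, still restrains, and MDV-R was derived from it by serial passage in the drug. Each line was therefore 1 line against 1 line, and nothing in the labels said whether replicates were separate cultures, so p-values below measure the spread between these libraries, which may be technical. By the paper's culture methods MDV-R was also kept in medium with enzalutamide, while no drug is named for C4-2B. Line and ongoing exposure to the drug can therefore not be told apart. The sample titles of MDV-R also carried the name of another line, T24R2, and the cell line field was followed. In that check 10 of 10 prostate genes had an exonic m6A peak in both lines, while of 11 genes of urothelium and bladder cancer lines only VIM had one, in all 8 lists.

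m6A is laid down on nascent RNA by a methyltransferase complex, mostly at short motifs around GGAC, in long internal exons and near stop codons. YTHDF proteins bind it in the cytoplasm and steer mRNAs towards translation or decay, YTHDC1 acts on splicing and export in the nucleus, and YTHDC2 is a helicase best known from germ cells. IGF2BP proteins bind RNA through KH domains and are linked to mRNA stability. FTO and ALKBH5 are demethylases that remove the mark.

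The GGAC sites nearest to the strongest summits are shown first. They lay 2 to 53 nt from a summit, except in FTO, where the distance was 87 nt. In MDV-R the strongest FTO summit was nearest to another GGAC, not printed here, 140 nt away. The FTO site therefore does not place the signal closely. GGAC was searched on the strand of the gene. Each line gives 24 bases of the hg38 genome, with the GGAC nearest to the summit in capitals and T in place of U. The ALKBH5 and IGF2BP3 lines also hold a further GGAC, left in lower case. The first 4 lie in the long coding exon 4 of YTHDF1 (chr20:63202559-63202582 and chr20:63203265-63203288, minus strand) and of YTHDF2 (chr1:28743653-28743676 and chr1:28743691-28743714, plus strand), the next pair in coding exons of ALKBH5 (chr17:18184419-18184442, plus) and FTO (chr16:53826289-53826312, plus), and the last 3 in the 3′UTRs of YTHDF1 (chr20:63195723-63195746, minus) and IGF2BP2 (chr3:185643998-185644021, minus) and in a non-coding exon of IGF2BP3 (chr7:23414984-23415007, minus).
YTHDF1 exon 4, 3′ site: agtcccccgtGGACtacggcacca
YTHDF1 exon 4, 5′ site: ggcaacggtgGGACaaatgtgaac
YTHDF2 exon 4, 5′ site: caacggcagtGGACacttctgtgg
YTHDF2 exon 4, 3′ site: aatctgctgtGGACtacaacacat
ALKBH5 exon 1: agtatcaggaGGACtcggaccccg
FTO exon 3: atcctacaacGGACaagatgaagt
YTHDF1 3′UTR: gtggaatgagGGACcgttgagctc
IGF2BP2 3′UTR: gccttcttttGGACaaaccttgaa
IGF2BP3 non-coding exon: ctgaaggacgGGACctgcagatgc

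The coding-exon sites were compared after alignment on GGAC, whose bases match in every pair and are counted. Other pairs of sites from different genes shared 6 to 14 of 24 bases, and the 3′ sites of YTHDF1 and YTHDF2 shared 16. Their A lay at nucleotide 1238 of an exon of 1521 nt in YTHDF1 and at nucleotide 1301 of an exon of 1584 nt in YTHDF2. The IGF2BP3 region stood out by its density, with 26 GGAC in 811 nt, 7 of the 25 neighbouring pairs being exactly 36 nt apart. Of 6947 merged regions of similar length, itself included, 6 (0.0864%) held as many per nucleotide on either strand.

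The authors called peaks over input separately for each IP library, which gave 8 lists. The number of tags (deduplicated reads) at each summit was recovered from the fold enrichment and p-value in the list, as were library sizes: 0.864 to 1.21 M tags (M, mega) per IP library, 0.901 to 1.23 M per C4-2B input and 1.60 to 2.97 M per MDV-R input. Input depth and line can therefore not be told apart. C4-2B replicate 1 stood apart by its short list, 13191 peaks against 23254 to 30645 in the others, and MDV-R replicate 3 by the shallowest input of its line, so calls gained or lost without either are given. These are bulk libraries, in which fewer cells with a transcript and less of it per cell cannot be told apart.

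Peaks were compared by 3 measures. Fold enrichment is the authors' ratio of IP pileup to local background at the summit. Summit tags are the IP tags there per 1000000 tags of the library (CPM). Local background comes from the input around the summit, as a multiple of the average of its library, and it bears on the abundance of the RNA as well as on depth.

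First, the presence of peaks was compared. Of the 28 regions, 10 were called in all 8 lists, in 7 genes: YTHDF1, YTHDF2 and YTHDF3, YTHDC2, IGF2BP3, FTO and ALKBH5. Over all called regions the share in all 8 lists was 25.9%, and among the members it was 35.7%. The calls of FTO in MDV-R replicate 3 and of ALKBH5 in C4-2B replicate 1 were weak, at percentiles 5.83 and 0.0227 of their lists by p-value. With a stricter cutoff (−log10 q of at least 5), or with lists cut to equal size, 8 of the 10 regions remained. No member region was called in all 4 lists of a line and in 0 of the other, where 1.22% of all 36076 called regions were called in C4-2B alone and 3.68% in MDV-R alone. Fisher's exact test gave 0 regions with an adjusted p under 0.05, in the whole table as among the members, since 4 against 4 lists cannot go below p = 0.0286, and 1766 regions, none of them a member, had an unadjusted p under 0.05. There were 14 member regions called in more MDV-R than C4-2B lists, 3 in more C4-2B lists and 11 in as many of both, beside 49.7%, 18.4% and 31.9% of all called regions.

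**Figure D1:**
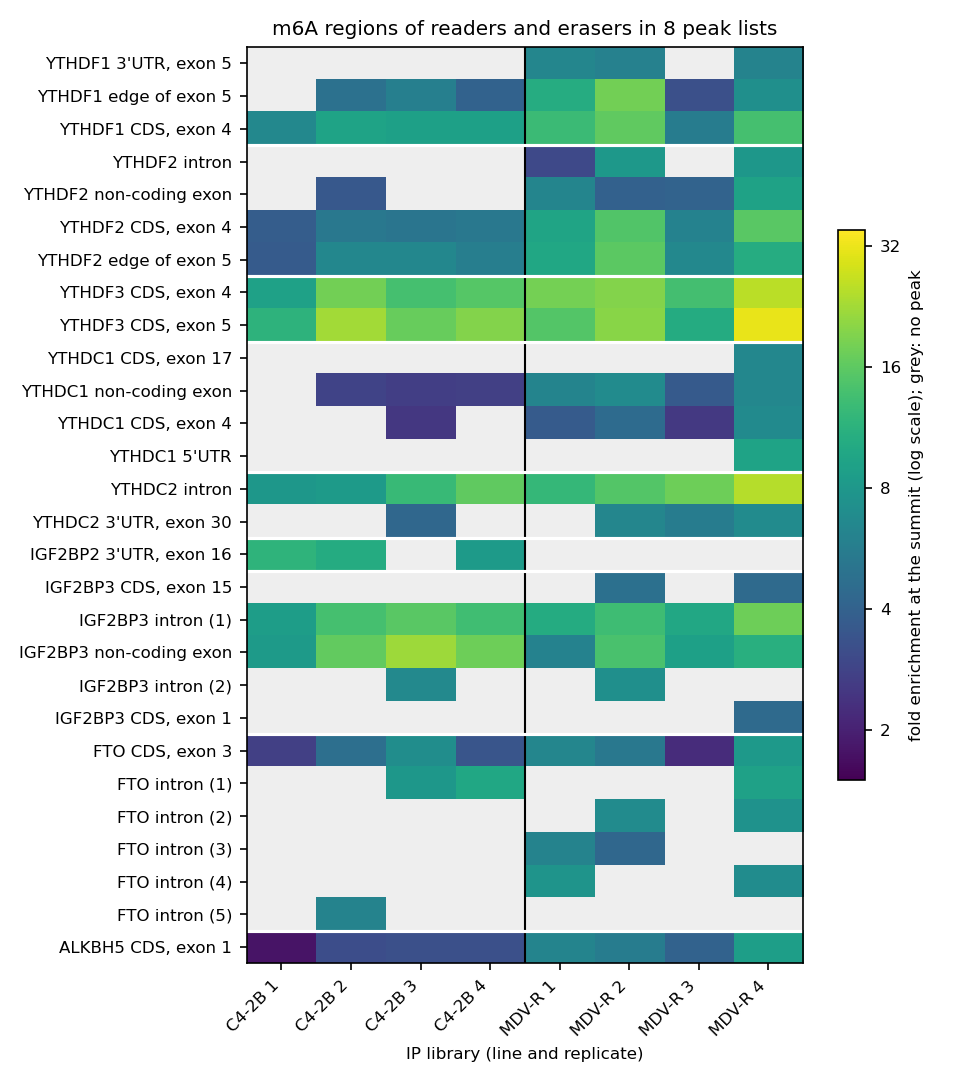
Fold enrichment at the summit (colour, log scale) of the 28 regions in each of the 8 IP libraries, with C4-2B left and MDV-R right of the black line and grey where the list held no peak. The 10 rows without grey lie in 7 genes, and the IGF2BP2 row is coloured in C4-2B only, at 8.31 to 11.6, as is 1 FTO intron called in a single list (6.13).

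YTHDF1, a reader linked to translation, had 3 regions. The one in exon 4 (chr20:63202288-63203968) was among the strongest of each list. Its fold enrichment was 6.54, 9.31, 9.01 and 8.97 in C4-2B replicates 1 to 4 and 12.8, 16.3, 5.60 and 13.9 in MDV-R replicates 1 to 4. MDV-R was higher in 3 libraries and lowest of all in replicate 3, so that the lines overlapped, and the log2 difference of 0.43 ± 0.36 (SE, MDV-R minus C4-2B) did not pass in limma (adjusted p = 0.432). Summit tags lay at 121 to 167 CPM in C4-2B and 136 to 141 CPM in MDV-R, and overlapped as well. Local background lay at 45.2 to 52.7 in C4-2B and at 29.0, 23, 73.2 and 27.2 in MDV-R, where replicate 3 stood above every other library (difference -0.54, adjusted p = 0.328; -0.91 and 0.00831 without that library).

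The strongest summit of YTHDF1 lay in different places in different libraries. It was at nucleotides 585, 584 and 574 of exon 4 in C4-2B replicates 2 to 4, but at nucleotide 1230 in C4-2B replicate 1 and at 1215 to 1266 in the 4 MDV-R libraries. The first place lay 53 nt from the 5′ site printed above and the second 23 nt from the 3′ site, both measured in the library with the strongest peak. In C4-2B replicate 1 the summit thus lay with MDV-R, and since a list names only 1 summit for this peak, the pileup at the other place was not measured.

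The other YTHDF1 regions were weaker. A region in the 3′UTR (chr20:63195520-63195837) was called in MDV-R replicates 1, 2 and 4, at fold enrichments of 6.33, 5.97 and 6.13 from 21 to 26 tags, and in 0 C4-2B lists (Fisher's exact p = 0.143). Its summit lay 2 nt from the GGAC printed above. The third, whose summit lay 13 nt outside exon 5, was called in 3 C4-2B lists (fold enrichment 4.93 ± 0.904) and 4 MDV-R lists (9.73 ± 6.23, 3.24 to 17.9) with nearly the same tags, 52.2 ± 4.29 and 51.4 ± 3.31 CPM, and no GGAC in its 451 nt.

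YTHDF2, the reader that recruits the deadenylation machinery to its targets, had 4 regions, and 1 of them was the member region past the threshold in fold enrichment. In exon 4 (chr1:28742246-28744021) fold enrichment was 3.78, 5.28, 5.08 and 5.28 in C4-2B and 9.46, 14.9, 6.07 and 15.7 in MDV-R. Every MDV-R library stood above every C4-2B library, with MDV-R replicate 3 closest to C4-2B. The difference was 1.16 ± 0.36 on the log2 scale (2.24-fold, limma adjusted p = 0.0468), beside a median of 0.44 over the 9327 regions called in all 8 lists, of which 3.02% were higher in MDV-R past the threshold and 0.214% lower. Every MDV-R library lay above every C4-2B library in 10.2% of those regions and below in 0.943%. It passed in 5 of 15 alternative fits, at adjusted p-values from 0.00197 without MDV-R replicate 3 to 0.257 by the exact permutation test, was lost on leaving out any other single library (0.0729 to 0.244), and stood at 0.76 (adjusted p = 0.0816) once every library was centred on its median.

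The 2 parts of that ratio behaved differently in YTHDF2. Summit tags in exon 4 were 179, 215, 228 and 248 CPM in C4-2B and 208, 226, 199 and 218 CPM in MDV-R, the highest of any member. They overlapped fully (difference -0.03 ± 0.12, adjusted p = 0.896). Local background was 140, 120, 132 and 138 times the library average in C4-2B and 62.8, 42.5, 95.7 and 38.3 times in MDV-R. Every MDV-R library was lower, as in 15.7% of the regions with a background in all 8 lists, against 2.01% with every MDV-R library higher. The drop was 1.24 ± 0.35 on the log2 scale: the geometric means were 132 and 55.9 (difference -1.24, limma adjusted p = 0.0154), beside a median of -0.48 over all regions, of which 13.5% were lower in MDV-R past the threshold and 1.81% higher. This call was kept in 8 of 12 alternative fits, among them the centred one (-0.75, adjusted p = 0.00130, where 9.72% of all regions were lower and 6.64% higher), and was lost without C4-2B replicate 1 (0.0512), MDV-R replicate 1 (0.0516) or MDV-R replicate 2 (0.0806) and by the exact permutation test (0.161).

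The YTHDF2 region 15 nt outside exon 5, the exon with the stop codon, also had less background in MDV-R. Its fold enrichment was 3.71, 6.41, 6.43 and 5.80 in C4-2B and 9.82, 15.8, 6.51 and 10.6 in MDV-R, which did not overlap, though MDV-R replicate 3 stood just above the highest C4-2B library (difference 0.90 ± 0.36, limma adjusted p = 0.117). Without MDV-R replicate 3 the difference was 1.11 and passed (adjusted p = 0.0151), the 1 of 15 alternative fits that did. Local background was 63.3, 41.5, 41.3 and 55.8 in C4-2B and 21.8, 11.1, 35.7 and 22.3 in MDV-R, lower in every MDV-R library (difference -1.24 ± 0.38, adjusted p = 0.0248, with 7 of 12 alternatives past the threshold). It lost the threshold without C4-2B replicate 1 (0.0900), C4-2B replicate 4 (0.0691), MDV-R replicate 1 (0.0724) or MDV-R replicate 2 (0.147). Summit tags were 95.8 ± 13.3 CPM and 81.8 ± 6.11 CPM, with a difference of -0.22 and an adjusted p of 0.225, and were lower in MDV-R past the threshold in 2 of 12 alternative fits, after centring (-0.28, adjusted p = 0.00317) and without C4-2B replicate 1 (-0.30, adjusted p = 0.00803).

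Near its 5′ end YTHDF2 had a pair of weak regions seen mostly in MDV-R. One in an intron 66 nt from exon 1 was called in MDV-R replicates 1, 2 and 4, at fold enrichments of 3.02, 8.0 and 7.92, and in 0 C4-2B lists. One in a non-coding exon was called in C4-2B replicate 2 at 3.58 and in the 4 MDV-R libraries at 6.30, 4.01, 4.10 and 9.19 (Fisher's exact p = 0.143 for each region). Both overlap another annotated gene, ENSG00000289291, to which their reads could belong.

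YTHDF3, the third cytoplasmic YTHDF reader, reached the highest fold enrichment of any member in a single library, 31.6, and both of its regions were called in all 8 lists. In exon 4 fold enrichment was 9.12, 17.8, 13.8 and 15.2 in C4-2B and 18.1, 19.6, 13.7 and 25.2 in MDV-R. In exon 5, with the summit at -22 nt from the end of the stop codon, it was 11.5, 22.6, 16.8 and 19.5 in C4-2B and 15, 20, 10.4 and 31.6 in MDV-R. The lines overlapped in both, with log2 differences of 0.46 ± 0.36 (limma adjusted p = 0.392) and 0.05 ± 0.36 (0.932), and the second turned to -0.35 after centring. No GGAC lay in the 756 nt of the second region, whereas the first held 11.

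The summits of YTHDF3 in exon 4 also lay in different places. They lay at nucleotides 361, 368, 368 and 372 of the exon in C4-2B, at 404 and 409 in MDV-R replicates 3 and 4, and at 599 and 600 in MDV-R replicates 1 and 2. Replicates 3 and 4 of MDV-R thus lay nearer to C4-2B than to the other MDV-R libraries. In YTHDF2 the summits of both lines fell in 1 stretch, nucleotides 1218 to 1308 in C4-2B and 1243 to 1278 in MDV-R, where its pair of printed sites lies at 1263 and 1301. Each list names only 1 summit for such a peak, so the pileup at other places was not measured. These positions were noted after the values were seen and are given without a test. How often summits differ in this way over all regions was not counted.

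**Figure D2:**
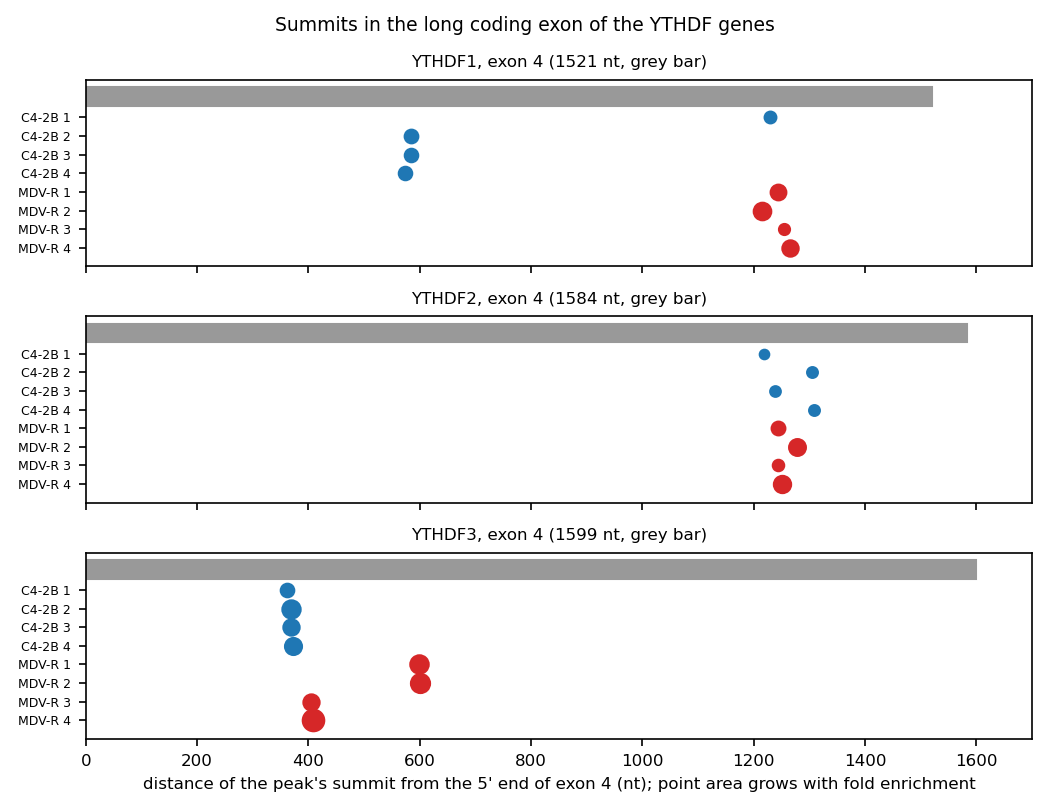
Position of the strongest summit (x axis, nt from the 5′ end of exon 4) in each of the 8 IP libraries (rows), for YTHDF1, YTHDF2 and YTHDF3, with blue points for C4-2B, red for MDV-R and point area growing with fold enrichment. In YTHDF1 the points of C4-2B replicates 2 to 4 lie at 574 to 585 and the other 5 at 1215 to 1266. In YTHDF2 all 8 lie between 1218 and 1308. In YTHDF3 the C4-2B points lie at 361 to 372, those of MDV-R replicates 3 and 4 at 404 and 409, and those of MDV-R replicates 1 and 2 at 599 and 600.

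YTHDC1, the nuclear reader, had 4 merged regions, and none was called in all 8 lists. In coding exon 4 (chr4:68337266-68337599) a peak was called in C4-2B replicate 3 at a fold enrichment of 2.49 and in MDV-R replicates 1 to 4 at 3.72, 4.49, 2.52 and 6.75 (Fisher's exact p = 0.143). The C4-2B value lay just below the lowest of MDV-R, and its 130 CPM lay among the 111 to 135 CPM of MDV-R. A region in a non-coding exon was called in 3 C4-2B lists (2.75 ± 0.0743) and 4 MDV-R lists (5.80 ± 1.44), and the remaining pair in MDV-R replicate 4 alone. C4-2B replicate 1 held no YTHDC1 peak at all.

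Peaks of YTHDC1 also lay outside the merged list, 12 of the 151 peaks in the 10 genes and the only ones of these genes that did, while 8.59% of all 191974 peaks did. In an intron, 7 peaks from 3 C4-2B and 4 MDV-R lists had fold enrichments of 5.79 to 13.1. In the 5′UTR of exon 1, 5 peaks from 1 C4-2B and 4 MDV-R lists had 5.68 to 12.6, from 42 to 58 tags. In the count of peaks per list YTHDC1 therefore had 0, 3, 3 and 2 peaks in C4-2B and 4, 4, 4 and 6 in MDV-R. The MDV-R lists were also the longer ones on the whole, and how many other genes differ as much was not counted.

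YTHDC2, the helicase, was called in all 8 lists in an intron, 1450 nt from the nearest exon. Fold enrichment was 7.97, 8.37, 12.5 and 16.3 in C4-2B and 12.2, 15, 17.5 and 24.7 in MDV-R, which overlapped, from 20 to 36 tags (difference 0.63 ± 0.36, limma adjusted p = 0.246). Tags overlapped too, at 16.6 to 37.1 CPM in C4-2B and 22.2 to 39 CPM in MDV-R (difference 0.37 ± 0.20, adjusted p = 0.147), and passed in 2 of 12 alternative fits, without C4-2B replicate 4 (0.56, adjusted p = 0.0311) and without MDV-R replicate 1 (0.55, adjusted p = 0.0449). A 3′UTR region 9 nt past the stop codon was called in C4-2B replicate 3 at 4.29 and in 3 MDV-R lists at 6.27 ± 0.628.

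The IGF2BP readers differed from each other. IGF2BP1 had 0 peaks in the 8 lists and no merged region. IGF2BP2 had 1, in the 3′UTR (chr3:185643777-185644157), called in C4-2B replicates 1, 2 and 4 at fold enrichments of 11.6, 10.4 and 8.31 and in 0 MDV-R lists (Fisher's exact p = 0.143). Only 18 to 22 tags stood behind each, and it was the single member region that differed by 3 or more lists towards C4-2B, against 4 towards MDV-R, beside 3.73% and 10.6% of all called regions. Without C4-2B replicate 3 it counted as called in C4-2B alone.

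IGF2BP3 had 5 regions, and 2 were called in all 8 lists. In the non-coding exon dense in GGAC (chr7:23414657-23415467) fold enrichment was 8.30, 16.5, 22.1 and 17.5 in C4-2B and 6.04, 14.1, 8.96 and 10.9 in MDV-R. Most MDV-R values were the lower ones, but the lines overlapped (difference -0.67 ± 0.36, limma adjusted p = 0.224). Centring each library on its median moved the difference to -1.07 and past the threshold (adjusted p = 0.0390), the 1 of 14 alternative fits that passed, on a scale on which 0.901% of all regions were higher in MDV-R and 1.77% lower. Summit tags were 26.5, 28.7, 42.9 and 45.2 CPM in C4-2B and 14.4, 32.9, 30.2 and 33.5 CPM in MDV-R, overlapping as well (difference -0.41 ± 0.20, adjusted p = 0.0984). They passed in 2 of 11 alternative fits, after centring (-0.47, adjusted p = 0.0394) and without C4-2B replicate 1 (-0.54, adjusted p = 0.0360), beside 27.3% of all regions lower and 26.4% higher in tags after centring. Without MDV-R replicate 1, the lowest library, the difference was -0.12 (adjusted p = 0.727). The region lies 3798 nt from the nearest exon of the main transcript.

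The second IGF2BP3 region in all lists was intronic, at 12.9 ± 2.98 in C4-2B and 12.8 ± 3.49 in MDV-R. In the coding exons peaks appeared in MDV-R alone, in exon 15 with the summit at -32 nt from the end of the stop codon (replicates 2 and 4, 4.77 and 4.48) and in exon 1 (replicate 4, 4.47). The summit in exon 15 lay 8 nt from a GGAC.

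FTO, the eraser first known from its link to body weight, carried 1 region in all lists, in coding exon 3 (chr16:53825835-53826469), and the lines differed in its IP signal. Summit tags were 59.7, 69.3, 70.7 and 82.2 CPM in C4-2B and 44.4, 45.7, 48.7 and 49.1 CPM in MDV-R. Every MDV-R library was below every C4-2B library, as for 11.0% of the regions with tags in all 8 lists, while the reverse held for 20.5%. The difference was -0.58 ± 0.16 on the log2 scale, 1.49-fold (limma adjusted p = 0.00164), beside a median of 0.06 over all regions, of which 14.9% were lower in MDV-R past the threshold and 20.8% higher. It passed in 11 of 12 alternative fits, at -0.66 to -0.50, and missed the threshold by the exact permutation test (adjusted p = 0.0907).

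Fold enrichment of the same FTO region showed no such difference. It was 2.74, 4.74, 7.0 and 3.45 in C4-2B and 6.36, 5.30, 2.23 and 8.28 in MDV-R, fully overlapping (difference 0.25 ± 0.36, adjusted p = 0.665; -0.15 after centring). Local background was 63.3, 41.5, 27.5 and 69.0 in C4-2B and 18.1, 23.3, 63.8 and 14.8 in MDV-R, where replicate 3 stood with the highest C4-2B values (difference -0.91 ± 0.42, adjusted p = 0.132), and without that library it passed (-1.36, adjusted p = 0.00829). In FTO fewer tags thus stood beside a lower background in 3 of 4 MDV-R libraries, and how far tags follow RNA abundance was not tested. The other 5 FTO regions were intronic, called in 1 to 3 lists, from 6 to 46 tags.

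ALKBH5, the nuclear demethylase, had a single region, in coding exon 1 (chr17:18183006-18184731), in all 8 lists. The strongest summit lay at nucleotide 172 of the exon in C4-2B replicate 1 and at 559 to 587 in the other libraries. All values of that replicate were thus read at another place of the exon. The peak of that replicate was among the weakest of its list, at percentile 0.0227 by p-value. Fold enrichment of the region was 1.77, 3.15, 3.25 and 3.23 in C4-2B and 6.19, 5.65, 4.04 and 8.75 in MDV-R. Every MDV-R library was higher, as in 10.2% of the regions called in all 8 lists, with MDV-R replicate 3 again closest to C4-2B. The difference of 1.1 ± 0.36 on the log2 scale (2.14-fold) missed the threshold in limma (adjusted p = 0.0561). It passed in 3 of 14 alternative fits, after centring (0.70, adjusted p = 0.0390, where 0.901% of all regions were higher and 1.77% lower), without MDV-R replicate 3 (1.28, adjusted p = 0.00113) and when regions in at least 3 lists of each line were tested (adjusted p = 0.0484). In the other 11 adjusted p reached 0.257, by the exact permutation test and without MDV-R replicate 4, and was 0.218 without C4-2B replicate 1.

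The parts of the ratio did not pass in ALKBH5. Summit tags were 63.8, 110, 131 and 112 CPM in C4-2B and 115, 112, 122 and 120 CPM in MDV-R, overlapping (adjusted p = 0.202). Local background was 107, 103, 118 and 102 in C4-2B and 53.2, 56.6, 88.2 and 38.3 in MDV-R, lower in every MDV-R library (difference -0.92 ± 0.34, adjusted p = 0.0601; -1.14 and 0.00236 without MDV-R replicate 3, the only 1 of 11 alternative fits to pass), as in 15.7% of the regions with a background in all 8 lists, against 2.01% with every MDV-R library higher. An antisense gene, ENSG00000266677, overlaps the region, and MACS2 does not separate the strands, so reads of both cannot be told apart.

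**Figure D3:**
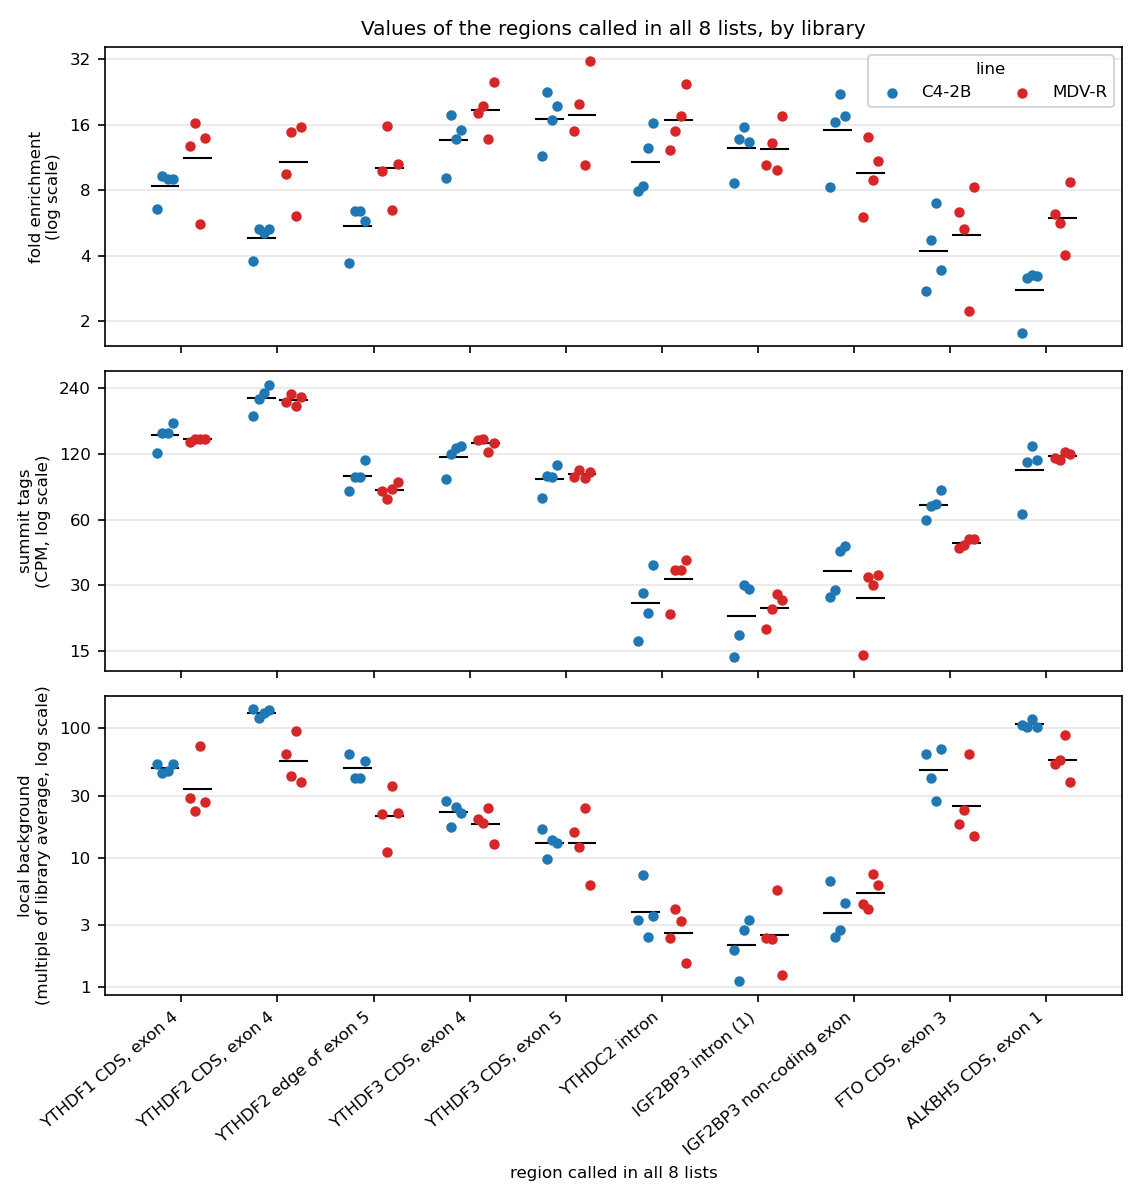
Fold enrichment, summit tags (CPM) and local background (multiple of the library average), each on a log axis, of the 10 regions called in all 8 lists, with a point per library (blue C4-2B, red MDV-R) and a bar at the geometric mean. In YTHDF2 exon 4 and ALKBH5 exon 1 the red points lie above the blue ones in fold enrichment and below them in background, while in FTO exon 3 they lie below in tags.

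Over the 10 regions called in all 8 lists, 1 was higher in MDV-R in fold enrichment (YTHDF2 exon 4) and 0 lower, 1 was lower in tags (FTO) and 0 higher, and 2 were lower in background (both YTHDF2) and 0 higher. Over all regions 3.02% were higher and 0.214% lower in fold enrichment. In tags 20.8% were higher and 14.9% lower, and in background 1.81% were higher and 13.5% lower. The median differences were 0.45, 0.02 and -0.53, beside 0.44, 0.06 and -0.48 over all 9327 regions. An unadjusted p under 0.05 was found for 3 members in fold enrichment, 2 in tags and 4 in background, beside 24.9%, 43.9% and 31.6% of all regions.

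**Figure D4:**
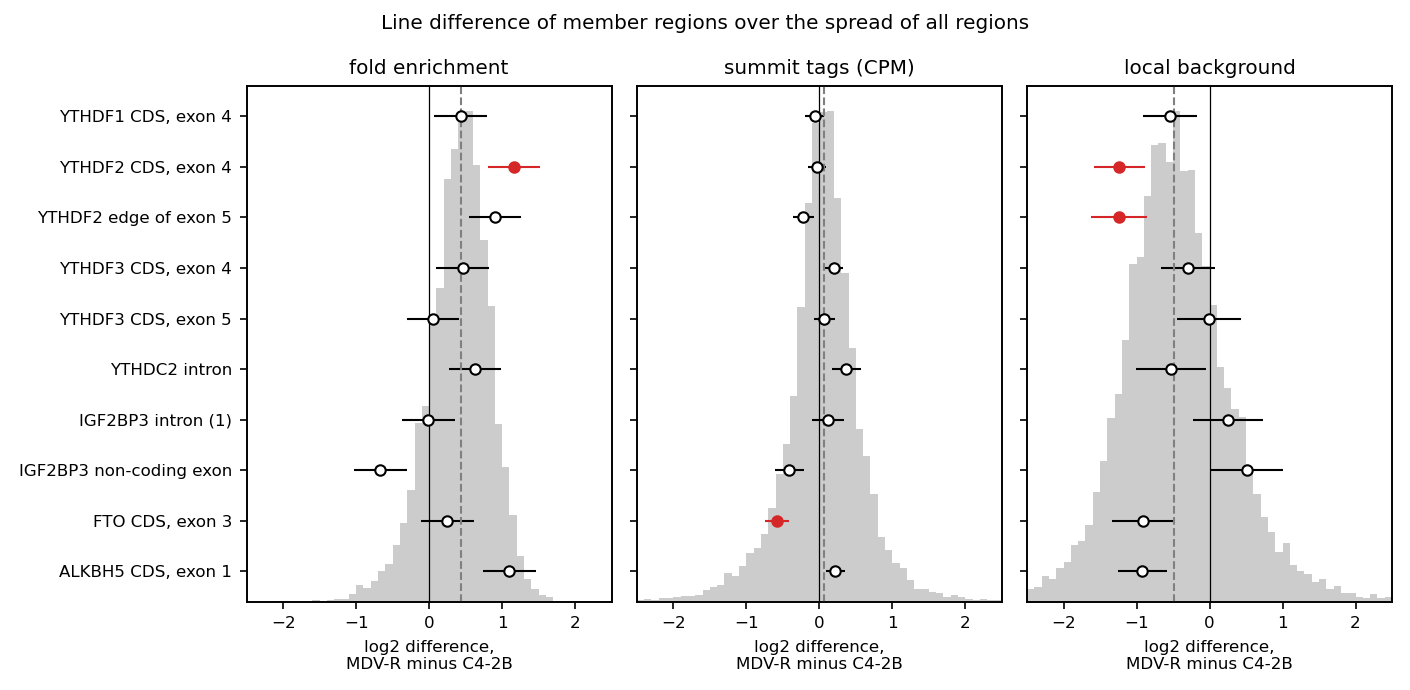
Log2 difference (MDV-R minus C4-2B, x axis) in fold enrichment, summit tags and local background of the 10 regions called in all 8 lists, as limma estimates with SE bars, over the grey distribution of all 9327 regions with its median as a dashed line. Filled red points have an adjusted p under 0.05: YTHDF2 exon 4 in fold enrichment (1.16), FTO exon 3 in tags (-0.58) and both YTHDF2 regions in background (-1.24 each).

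By position, 10 of the 28 regions lay in coding sequence, 10 in introns, 4 in exons of non-coding transcripts, and 3 and 1 in the 3′ and 5′ untranslated regions. Exons of any gene at the summit were counted. The YTHDF2 region 66 nt from exon 1, intronic in YTHDF2 itself, was therefore placed in an exon of a non-coding transcript. Of the merged regions within genes on the main chromosomes, 28.3% were coding, 36.7% intronic, 13.2% in exons of non-coding transcripts, and 15.4% and 6.43% in the 3′ and 5′ untranslated regions. Of the 10 members in all 8 lists 6 were coding, 3 intronic, 1 in a non-coding exon and 0 in a 3′UTR, beside 46.5%, 13.9%, 11.2% and 23% of all such regions within genes. The class rests on the summit, and a pair of the intronic regions, in YTHDF1 and YTHDF2, had summits within 15 nt of the exon that holds the stop codon. Across lists these summits lay at nucleotides -19 to 3 of exon 5 in YTHDF1 and -15 to 3 in YTHDF2 (1 being its first base). The YTHDF3 region of exon 5, counted as coding, lay at the same edge, at -1 to 9.

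Among exonic peaks of the 10 genes, GGAC lay within 50 nt of the summit in 52 of 90. Another 5 exonic peaks, in the non-coding exon of YTHDF2, were left out because exons of the same class lay on both strands. The mean share per list was 71.5% ± 21.1 (SD, n = 4) in C4-2B and 50.7% ± 6.53 (SD, n = 4) in MDV-R, against 47.3% ± 0.791 and 46.6% ± 1.36 over all exonic peaks. Windows 300 nt away held it in 34.0% and 28.6% of the member peaks, against 29.0% and 28.8% of all exonic peaks. The peaks of a gene repeat from list to list, so that these shares rest on few sites.

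The rest of the pathway gave few calls. The 9 writer genes, the methyltransferase complex and its partners, held 27 regions, 16 of them in all 8 lists, and 0 called in all lists of a single line. In limma 0 of the 16 passed in fold enrichment, 1 in tags (ZC3H13, -0.40, adjusted p = 0.0475) and 2 in background (ZC3H13, -1.01 and -1.05, adjusted p = 0.0458 and 0.0422), all lower in MDV-R, beside 14.9% of all regions lower in tags and 13.5% in background. After centring 5 of the 16 were lower in tags and 1 in background, beside 27.3% and 9.72% of all regions. Their median difference in fold enrichment was 0.72, with 15 of 16 above 0, beside 0.44 and 84.2% over all regions, and was 0.32 after centring.

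The 10 other RNA-binding proteins described as m6A readers held 28 regions in 8 genes, 4 of them in all 8 lists. Here 2 regions were called in 4 MDV-R and 0 C4-2B lists, in EIF3A, a translation initiation factor, and in SND1, beside 3.68% of all called regions. None of the 4 passed in fold enrichment or tags, while 1 did in background (EIF3A, -1.16, adjusted p = 0.0205), beside 13.5% of all regions. After centring 2 were lower in tags (EIF3A and HNRNPA2B1), beside 27.3%.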

How the data were processed

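The authors aligned MeRIP-seq reads to hg38 with STAR 2.7.0 and GENCODE, used SAMtools 1.10 to keep uniquely mapped, deduplicated reads, and ran MACS2 on every IP replicate over input (3.0.0a6 in the submitters' processing notes; extension 100 nt, genome size 300 Mb). The deposited lists give per peak a fold enrichment (a ratio), −log10 p and −log10 q, and a score that the authors' caller derives from the −log10 q. How the deposited merged list was made is not given in the sources used here. Read counts per region, and the count models of the study, were not used here.

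Tags and local background at each summit were recovered from fold enrichment and −log10 p by the caller's Poisson formula; a whole number of tags solved both in 98.29% to 100.0% of a list's peaks (7.33% to 11.7% when the scale was set wrong). Their precision is set by counting error as well as by replicate spread. A region was called in a list when a peak overlapped it by 1 bp, and its strongest peak gave the values. GENCODE release 44 gave genes and classes (coding sequence first, then 3′ and 5′UTRs, exons of non-coding transcripts, and introns). The log2 values of the 9327 regions called in all 8 lists were compared with limma 3.58.1 (lmFit, eBayes with trend; 183 regions lacked a recovered value in some list and were fitted on the rest), with Benjamini-Hochberg adjustment and a threshold of 0.05; an exact permutation test over 70 arrangements was an alternative. Differences are MDV-R minus C4-2B. The recovery, the region counts and the limma fit were tested on simulated data. Samples were grouped by the cell line field.

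All 10 genes are named. Values per list are given for exonic regions in all 8 lists, regions differing by 3 or more lists and regions past the threshold. Genes and lists were chosen with earlier results of these data known. Alternatives are described in the closing section.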

Additional observations from a re-analysis of the deposited data

Results flagged for a closer look

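Of 60 groups of 4 libraries examined (10 regions, 3 measures, 2 lines), 5 held a library far from the rest by Dixon's criterion, which chance alone flags in about 1 in 20 groups. C4-2B replicate 1, the library with the short peak list, gave 3 of them, each the lowest fold enrichment of its line: 6.54 in YTHDF1 exon 4 against 8.97 to 9.31 in the other C4-2B libraries, 3.78 in YTHDF2 exon 4 against 5.08 to 5.28, and 1.77 in ALKBH5 exon 1 against 3.15 to 3.25. For YTHDF1 and ALKBH5 the summit of this library lay at another place of the exon than in the other C4-2B libraries. In YTHDF1 exon 4, MDV-R replicate 3 had a local background of 73.2 against 23 to 29.0 in the other MDV-R libraries, and MDV-R replicate 1 had 136 CPM at the summit against 141 in each of the others.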

How the results depend on the processing

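Summits rest on 6 to 217 tags and the MDV-R inputs are deeper than those of C4-2B, and the part of depth in these comparisons was not tested. Member regions called in all lists of a line and in 0 of the other numbered 0 in each direction under every alternative that kept all libraries. Leaving out 1 library gave 0 to 1 for C4-2B and 0 to 2 for MDV-R (YTHDF1, YTHDF2, YTHDC1 or IGF2BP2). Over all regions it gave 463 to 1079 and 1337 to 2048, of 33742 to 36029 called. Member regions called in every remaining list then numbered 10 to 12. With all libraries kept they fell to 8 at a −log10 q of at least 5 and with lists of equal size. In fold enrichment the number higher in MDV-R was 1 in the reported fit, 0 with a common summit or by the exact permutation test, 2 with regions in at least 3 lists of each line and 0 to 3 on leaving out 1 library. The number lower was 0 and became 1 (IGF2BP3) after centring each library on its median. For summit tags the number lower was 1, 3 after centring (YTHDF2 near exon 5, IGF2BP3 and FTO), 0 by the exact permutation test and 1 to 3 on leaving out 1 library, and the number higher was 0, with 0 to 1 (YTHDC2). For local background the number lower was 2, 0 by the exact permutation test and 0 to 5 on leaving out 1 library. Leaving out MDV-R replicate 3 gave the highest counts of fold enrichment and background. A common summit within 100 nt was found for 5 of the 10 regions, so YTHDF1, YTHDF3 exon 4, IGF2BP3 and ALKBH5 had no such value. The mean share of exonic member peaks with GGAC over the 8 lists was 61.1%, and became 37.5% within 25 nt, 92.0% for DRACH, 31.3% in windows 300 nt away and 33.5% on the opposite strand. Over all exonic peaks the same shares were 46.9%, 28.0%, 89.6%, 28.9% and 27.4%. With 1 transcript per gene 0 regions lay in a 5′UTR and 2 in a non-coding exon. The cause of these changes was not tested.

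Replicate numbers did not pair the libraries: in fold enrichment, same-numbered libraries of the lines correlated at -0.075 to 0.025 in their deviations from the line means. With the replicate number as a block the counts stayed at 1 higher in fold enrichment, 1 lower in tags and 2 lower in background, and YTHDF2 exon 4 had an adjusted p of 0.0489 in fold enrichment.

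The sign of some small differences, none past the threshold, depended on the setting. After centring, fold enrichment turned to -0.35 in YTHDF3 exon 5 and -0.15 in FTO, and background to 0.19 in YTHDF3 exon 4 and 0.48 in YTHDF3 exon 5. With the peak of highest fold enrichment the IGF2BP3 intron turned to 0.03. On leaving out 1 library, fold enrichment ranged from -0.23 to 0.31 in YTHDF3 exon 5 and -0.20 to 0.09 in the IGF2BP3 intron. Tags ranged from -0.15 to 0.01 in YTHDF1 exon 4, -0.12 to 0.04 in YTHDF2 exon 4, -0.02 to 0.14 in YTHDF3 exon 5, -0.08 to 0.28 in the IGF2BP3 intron and 0.00 to 0.34 in ALKBH5. Background ranged from -0.31 to 0.35 in YTHDF3 exon 5 and -0.13 to 0.59 in the IGF2BP3 intron.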

Other observations

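A pair of regions touched a member gene while their strongest summit lay outside it. One, at 63216121 to 63219391 on chromosome 20, was called in all 8 lists with its summit 1447 nt upstream of YTHDF1, and the other, with its summit 410 nt upstream of YTHDF3, in 3 C4-2B and 4 MDV-R lists. The summed number of peaks in the 10 genes was 12, 17, 18 and 16 in C4-2B and 20, 23, 18 and 27 in MDV-R, and per 1000 peaks of the list it was 0.765 ± 0.105 and 0.816 ± 0.0817 (SD, n = 4).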
